A study of Mus musculus with 4 samples.

Results

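The proteins of the cytosolic ribosome were followed at the transcript level in alveolar epithelial type II cells, which make surfactant in the lung. The cells came from mTOR transgenic and from wild-type mice. Members were the rows of the deposited gene table whose symbol begins with Rpl, Rps or Rplp and goes on with a number (with a, x or l endings), plus Rpsa and Fau. S6 kinases and rows named as pseudogenes were left out. This gave 85 of 25759 gene symbols, 52 of the large and 33 of the small subunit, on 20 chromosomes. Of these, 7 are paralogues of another member (Rpl3l, Rpl7l1, Rpl10l, Rpl22l1, Rpl36al, Rpl39l and Rps27l), and the other 78 are the core genes. Rps4l, a further paralogue, was not analysed here, and Rack1, which also encodes a ribosome component, is not matched by the symbol rule.

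The mTOR Tg group comprised 2 libraries from mice with the genotype given as Sftpc-mTOR transgenic, a conditional model of active mTOR. The WT group comprised 2 libraries from wild-type mice. Both groups were of the C57BL/6 strain and 14 weeks of age, and the cell type was the same by the labels. Sftpc encodes surfactant protein C, and its promoter is used to drive transgenes in type II cells. The agent or recombinase that activates mTOR, the sex of the mice, the cell isolation and whether a library came from 1 mouse or several are not stated in the sources used here. P-values therefore measure only the spread between these libraries, which may be technical.

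These proteins are parts of the ribosome, and their genes are among the most evenly and highly expressed of the genome. Their mRNAs begin with a cytosine followed by a run of pyrimidines, the 5′ terminal oligopyrimidine (TOP) motif, through which LARP1 and the mTOR complex mTORC1 set how many of them are translated. Active mTORC1 promotes their translation and, through S6 kinases, MYC and RNA polymerase I, the building of ribosomes, so that ribosomal protein synthesis can change with little change in mRNA. Read counts measure the amount of mRNA and not its translation.

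Start regions of 11 members are shown because TOP runs are the feature through which mTORC1 reads these mRNAs. They are 2 stalk proteins (Rplp0 and Rplp2), the substrate of S6 kinase (Rps6), 2 genes among the highest log2 fold changes (Rps28 and Rpl41), 3 genes that share reads with an identical copy (Fau, Rps27 and Rps12), 2 paralogues and Rpl13a, known for a role outside the ribosome. They were chosen with their runs seen, and 7 of the 11 hold a run of at least 8, a larger share than among the members as a whole, given below them. Each line gives 45 bases, 20 before the annotated start of transcription and 25 from it on, written 5′ to 3′ on the strand of the gene, from RefSeq on GRCm38.p6. Capitals mark the longest run of C and T.
Rplp0, chr5:115559447-115559491, + strand: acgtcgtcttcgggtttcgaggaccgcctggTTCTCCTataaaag
Rplp2, chr7:141447631-141447675, + strand: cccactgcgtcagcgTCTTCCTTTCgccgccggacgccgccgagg
Rps6, chr4:86857343-86857387, - strand: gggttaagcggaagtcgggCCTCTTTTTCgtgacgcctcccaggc
Rps28, chr17:33824538-33824582, - strand: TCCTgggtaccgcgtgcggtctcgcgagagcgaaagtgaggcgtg
Rpl41, chr10:128549144-128549188, - strand: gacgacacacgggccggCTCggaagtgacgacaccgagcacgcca
Fau, chr19:6057927-6057971, + strand: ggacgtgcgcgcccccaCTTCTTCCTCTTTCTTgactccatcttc
Rpl13a, chr7:45128721-45128765, - strand: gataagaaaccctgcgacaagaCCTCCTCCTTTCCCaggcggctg
Rps27, chr3:90213624-90213668, - strand: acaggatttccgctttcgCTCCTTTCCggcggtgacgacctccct
Rps12, chr10:23787185-23787229, - strand: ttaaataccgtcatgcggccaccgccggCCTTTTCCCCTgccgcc
Rpl22l1, chr3:28805488-28805532, + strand: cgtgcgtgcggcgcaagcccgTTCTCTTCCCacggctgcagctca
Rpl7l1, chr17:46782632-46782676, - strand: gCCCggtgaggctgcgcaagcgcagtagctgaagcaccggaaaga

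A promoter window in RefSeq was matched for 65 of the 85 members, 62 of them tested. In 30 of these 62 members (48.4%) the 45 bases held a run of at least 8 C or T, against 16.6% of the 10202 tested genes with a window. Of the sequences above, Fau carries a run of 16 pyrimidines across its RefSeq start, and Rpl41 and Rpl7l1 none longer than 3. In the annotation used for gene positions, some 5′ ends lie outside the windows shown. They are those of Rpl41 (128549305), Rplp2 (141447370), Rps6 (86857412), Fau (6057844), Rps12 (23787275) and Rpl22l1 (28805436). Those of the other genes shown lie inside. A window without a long run therefore does not show that the mRNA lacks a TOP motif, and a split by run length rests on the starts used. A long run does not show a TOP motif either, as it was sought anywhere in the 45 bases. The letters CTTTC on the transcribed strand stood in 18 of the 62 members (29.0%) and in 4.83% of all genes, and on either strand in 35.5% and 8.61%. CGGAAG, the core of ETS factor sites, stood on either strand of the 300-base promoter window in 42 members (67.7%) and in 31.4% of genes. CTTTC lies within some of the pyrimidine runs, and a match is a description of letters only. Members with a run of 8 or more and members with a shorter one had similar values in the comparison described below, their log2 fold changes having medians of 0.19 (30 genes) and 0.17 (32 genes).

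Library totals were 21972124 and 20273396 counts in mTOR Tg and 18146693 and 19018785 in WT, where 3 counts correspond to 0.137 to 0.165 CPM, counts scaled to the library total. Sftpc took between 6.35% and 7.61% of counts in each library. It is the hallmark transcript of type II cells. Scgb1a1, the main product of airway club cells, took 13.9% and 4.52% of counts in mTOR Tg replicates 1 and 2, against 7.11% and 7.55% in WT. Of 6 leukocyte markers, the pan-leukocyte gene Ptprc had 0 or 3 counts, Cd3e and C1qb had 0 counts in all libraries, and the summed level of 13.2 to 14.7 CPM came almost wholly from Ly6c2. Mtor itself was at 38.9 and 61.8 normalised CPM in mTOR Tg replicates 1 and 2, against 56.8 and 56.7 in WT replicates 1 and 2, and no source used here says whether reads of the transgene fall under that symbol.

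No ribosomal protein gene passed the test between mTOR Tg and WT, given the spread between libraries. Transcripts of nearly all members were higher in mTOR Tg replicate 1 and slightly lower in mTOR Tg replicate 2 than in WT, so the 2 transgenic libraries lay on opposite sides of the WT pair. The members' summed share of counts was 3.93% and 2.84% in mTOR Tg replicates 1 and 2, against 3.27% and 2.96% in WT replicates 1 and 2. The 95% exact intervals ran from 3.92% to 3.94% and from 2.83% to 2.85% in mTOR Tg, and from 3.26% to 3.28% and from 2.95% to 2.96% in WT. The means were 3.39% ± 0.772 in mTOR Tg and 3.11% ± 0.223 in WT (SD, n = 2 each). An exact two-sided permutation test gave p = 1, and with 2 libraries against 2 no such test can go below 0.33. The intervals cover counting error only. In bulk samples, fewer cells of a type and less RNA per cell cannot be told apart.

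Both subunits showed this pattern. Large-subunit genes took 2.35% and 1.68% of counts in mTOR Tg and 1.95% and 1.77% in WT, and small-subunit genes took 1.58% and 1.16% in mTOR Tg and 1.32% and 1.19% in WT. In each subunit mTOR Tg replicate 1 was the highest and mTOR Tg replicate 2 the lowest of the 4 libraries. The ratio of large-subunit to small-subunit counts was 1.48 and 1.46 in mTOR Tg and 1.48 and 1.48 in WT (exact permutation p = 0.667, adjusted 0.800). With 6 such measures of shares and ratios computed in all, no p adjusted by the Benjamini-Hochberg method was below 0.667.

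**Figure D1:**
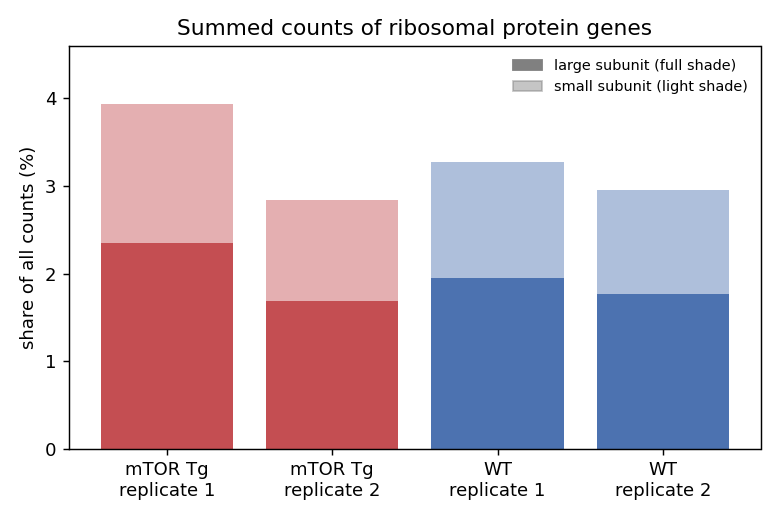
Share of all counts (%, axis from 0) taken by the 85 ribosomal protein genes in each library, split into large-subunit (full shade) and small-subunit (light shade) genes. mTOR Tg replicate 1 has the tallest bar at 3.93% and mTOR Tg replicate 2 the shortest at 2.84%, with the WT bars at 3.27% and 2.96% between them.

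Of the 85 members, 82 passed the filter on low counts and were tested among 13306 genes. The edgeR quasi-likelihood test called 0 of the 82 at an adjusted p under 0.05, and 0 at an unadjusted p under 0.05. Over all these genes 0.0% were called higher and 0.0% lower, and 1.54% were higher and 0.917% lower at the unadjusted threshold. DESeq2 and limma-voom also called 0 members, at adjusted and at unadjusted p under 0.05. DESeq2 called 0.0676% of all genes higher and 0.0225% lower, with 1.7% and 0.691% at the unadjusted threshold, and limma-voom called 0.0% of genes in each direction, with 1.35% and 1.07%. In 0 members were both mTOR Tg values above both WT values, and in 0 were both below, where the shares over all genes were 17.6% and 17.0%.

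The log2 fold change of the members had a median of 0.19, with an interquartile range of 0.11 to 0.27, and the median standard error was 0.27. It was above 0 in 79 of 82 members (50.9% of all genes, whose median was 0.01), in all 33 of the small and 46 of 49 of the large subunit. The 2 libraries behind this value differed. In mTOR Tg replicate 1 the median member was 1.38 times the WT mean (0.46 on the log2 scale), and 79 of 82 members lay above both WT libraries, against 44.7% of all genes. In mTOR Tg replicate 2 the median member was 0.906 times the WT mean (log2 difference -0.14), and 61 members lay below both WT libraries, against 35.5% of genes, and 0 above both, against 35.1%.

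The members also moved together within WT. In 80 of 82 members the normalised level was lower in WT replicate 2 than in WT replicate 1 (50.2% of all genes), with a median log2 difference of -0.19. Among mTOR Tg replicate 2 and the WT libraries, the log2 difference of a pair of libraries had a standard deviation over members of 0.083 to 0.11, compared with 0.366 to 0.426 over all genes. Pairs with mTOR Tg replicate 1 had a standard deviation of 0.175 to 0.22 over members and 0.71 to 0.736 over all genes. Most members have high counts, while the genes tested reach down to low counts, where counting error is larger. Genes of like level were not compared, so the smaller spread is not shown to be particular to the family. The genes share library and depth, so they are not independent measurements of a shift.

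**Figure D2:**
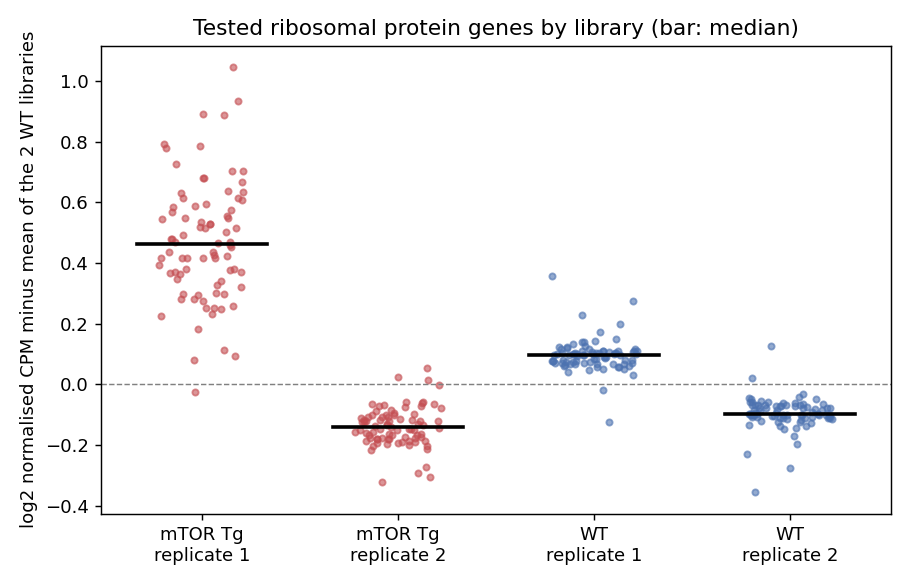
Difference of each of the 82 tested ribosomal protein genes from the mean of the WT libraries, in log2 normalised CPM, by library. Each point is 1 gene and each bar the median, which is 0.46 for mTOR Tg replicate 1 and -0.14 for mTOR Tg replicate 2; the WT libraries mirror each other because they define the mean.

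The stalk proteins, which stand out from the large subunit and recruit translation factors, were split like the rest of the family. Rplp0, the base of the stalk (chromosome 5, 115559467 to 115563727, GRCm38), was at 1280.2 and 698 normalised CPM in mTOR Tg replicates 1 and 2, against 828 and 723 in WT replicates 1 and 2. Rplp1, which pairs with Rplp2 on that base, was at 860.2 and 428 in mTOR Tg and 514 and 479 in WT, and Rplp2 at 433 and 257 in mTOR Tg and 297 and 270.1 in WT. In each of the 3 genes mTOR Tg replicate 1 was the highest library and mTOR Tg replicate 2 the lowest, so the WT values fell between them. Log2 fold changes were 0.35 ± 0.34 (SE, adjusted p = 0.860 by edgeR) for Rplp0, 0.38 (SE 0.36) for Rplp1 and 0.28 (SE 0.29) for Rplp2. Relative to the WT mean, on the log2 scale, they stood at a median of 0.73 in mTOR Tg replicate 1 and of -0.15 in mTOR Tg replicate 2, against 0.42 and -0.15 over all tested large-subunit genes.

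Rps6, the small-subunit protein phosphorylated by S6 kinases downstream of mTORC1 (chromosome 4, 86854660 to 86857412), was at 763 and 499 normalised CPM in mTOR Tg replicates 1 and 2, against 603 and 542 in WT replicates 1 and 2. The mean was 631 ± 187 in mTOR Tg and 573 ± 43.2 in WT (SD, n = 2 each), which gave a log2 fold change of 0.14 ± 0.27 (SE, adjusted p = 0.892 by edgeR). As for the stalk, the mTOR Tg values enclosed both WT values. Rpsa, a small-subunit protein that also serves as a laminin receptor, was at 886 and 522 in mTOR Tg and 603 and 543 in WT, a log2 fold change of 0.30 ± 0.30 (SE, adjusted p = 0.860 by edgeR). Rps19 and Rps14, both known from human inherited or acquired anaemias with reduced ribosome assembly, were at 735 and 542 in mTOR Tg and 628 and 538 in WT for Rps19, and at 986 and 658 in mTOR Tg and 779 and 699 in WT for Rps14. In Rps19 the mTOR Tg replicate 2 value lay between the WT values, and in Rps14 it lay below both. Rps4x, encoded on the X chromosome, was at 537 and 393 in mTOR Tg and 467 and 406 in WT (log2 fold change 0.09).

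Among the 5 highest log2 fold changes were those of Rps29, Rpl41 and Rps28, genes of short proteins, beside Fau and Rps12 described further on. Rps29 (chromosome 12, 69157722 to 69159186), a zinc-binding protein of the small subunit, was at 488 and 241 normalised CPM in mTOR Tg replicates 1 and 2, against 286 and 195 in WT replicates 1 and 2. Here the WT libraries were themselves apart, and mTOR Tg replicate 2 lay between them, so the groups overlapped. The log2 fold change was 0.60 ± 0.39 (SE, adjusted p = 0.860 by edgeR). Rps28, another short protein of the small subunit, was at 451 and 264 in mTOR Tg and 299.9 and 228 in WT, with mTOR Tg replicate 2 again between the WT values, and a log2 fold change of 0.44 ± 0.32 (SE, adjusted p = 0.860 by edgeR). Rpl41, which encodes the smallest protein of the large subunit, was at 1184 and 594 in mTOR Tg and 691 and 592 in WT, where mTOR Tg replicate 2 lay just above the lower WT value. Its log2 fold change was 0.47 ± 0.36 (SE, adjusted p = 0.860 by edgeR). On their own rows, only Rps29, Rps28 and Fau among the 82 members were above the WT mean in mTOR Tg replicate 2, by 0.03, 0.01 and 0.05 on the log2 scale. Fau shares reads with an identical copy, and with that copy added its mTOR Tg replicate 2 value lay below the WT mean, as given further on.

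In the large subunit, Rpl5 and Rpl11, which together with 5S rRNA bind the p53 regulator MDM2 when ribosome assembly fails, were at 634 and 465 in mTOR Tg and 539 and 505 in WT for Rpl5, and at 557 and 349 in mTOR Tg and 412 and 351 in WT for Rpl11. Both had mTOR Tg replicate 1 as the highest and mTOR Tg replicate 2 as the lowest library, and log2 fold changes of 0.07 (SE 0.24) and 0.25 (SE 0.29). Rpl13a, which in human myeloid cells can leave the ribosome to silence inflammatory mRNAs, was at 1018 and 599 in mTOR Tg and 732 and 628 in WT (0.25, SE 0.31). Rpl10a, known from mouse stem cells as a protein that not every ribosome carries, was at 367 and 223 in mTOR Tg and 253 and 242 in WT, and Rpl3, which reaches towards the peptidyl transferase centre, at 752 and 546 in mTOR Tg and 643 and 581 in WT. In these as well the mTOR Tg libraries enclosed the WT libraries, with log2 fold changes of 0.25 and 0.08.

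Rpl21, Rpl22l1 and Rpl7l1 had log2 fold changes below 0, of -0.13, -0.11 and -0.15, none with an adjusted p under 0.860. Rpl21, a large-subunit protein (chromosome 5, 146832890 to 146837032), was at 703 and 525 normalised CPM in mTOR Tg replicates 1 and 2, against 832 and 508 in WT replicates 1 and 2. Its WT values were the farthest apart of any tested member, with 15150 and 10042 counts, a log2 difference of -0.71, and mTOR Tg replicates lay between them. Rpl7l1 was at 65.99 and 54.9 in mTOR Tg and 69.6 and 64.9 in WT, and mTOR Tg replicate 1, between the WT values, was only -0.03 from their mean on the log2 scale. It was the 1 tested member below the WT mean in both mTOR Tg libraries.

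The remaining 52 tested members, 30 of the large and 22 of the small subunit, had log2 fold changes from 0.013 to 0.41, of which 52 were above 0. Their mean level over the 4 libraries ranged from 190.2 normalised CPM in Rps13 to 696 in Rps2. Relative to the WT mean they lay between 0.18 and 0.78 on the log2 scale in mTOR Tg replicate 1 and between -0.27 and -0.06 in mTOR Tg replicate 2, so that the ranges of the 2 libraries did not meet. In 41 of them the mTOR Tg values enclosed both WT values, and in the other 11 mTOR Tg replicate 2 lay between the WT values. The share of all genes with such an enclosure is not given here, so these counts are not shown to be particular to the family.

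Once libraries were scaled to the summed counts of the members, which removes a shift shared by all of them, 39 genes were higher and 43 lower in mTOR Tg, and 74 of 82 had a log2 difference within 0.2. On this scale 32.3% of all genes were higher. The scaling centres the members, so a near-even split of them follows from it and is not a result. The share of all genes within 0.2 is not given here. The extremes were Rpl7l1 at -0.32, Rpl22l1 at -0.29 and Rpl21 at -0.28, and Rps29 at 0.37, Fau at 0.33 and Rps12 at 0.26 (log2 fold changes relative to the family, smallest edgeR adjusted p 0.9998). The values of Fau and Rps12 rest on rows that hold only part of the reads they share with an identical copy. With those copies added, their log2 fold changes between mTOR Tg and WT, not relative to the family, were 0.34 and 0.20, beside the family median of 0.19. The composition of ribosomal protein mRNA showed no call by this test either.

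Per length, the paralogues Rpl7l1, Rpl22l1 and Rps27l stood below their partner genes and Rpl36al close to Rpl36a, as given further on. Of the 7, Rpl10l and Rpl39l, which are known as testis genes, had 0 counts in every library, below the floor of 0.137 to 0.165 CPM that 3 counts represent. Rpl3l, a paralogue of Rpl3 known from striated muscle, had 4 and 0 counts in mTOR Tg and 0 and 1 counts in WT and was not tested. The other 4 were tested and had 2 log2 fold changes on each side of 0 (median 0.02).

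Ratios of a paralogue to its partner within a library do not depend on how libraries are scaled, but they can change with the correction for transcript length and GC content described further on. Rpl22, an RNA-binding protein of the large subunit known in mice to repress its paralogue Rpl22l1, was at 225 and 159 in mTOR Tg and 192 and 175 in WT, and Rpl22l1 at 63.00 and 47.7 in mTOR Tg and 65.7 and 54.2 in WT normalised CPM. For each 100 counts of Rpl22 there were 28.0 and 29.9 counts of Rpl22l1 in mTOR Tg, against 34.2 and 31.0 in WT. The groups did not overlap, with both mTOR Tg libraries lower, and the exact permutation p was 0.33 (adjusted 0.667), the smallest raw p this design allows. After the correction the separation was lost: relative to the WT mean the log2 ratio was 0.07 and -0.11 in mTOR Tg and 0.06 and -0.06 in WT, and the exact permutation p was 1.

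Rps27l, a p53 target, was at 89.1 and 51.04 in mTOR Tg and 58.7 and 50.99 in WT, and Rps27, its zinc-finger partner in the small subunit, at 688 and 520.5 in mTOR Tg and 649 and 535 in WT. Per 100 counts of Rps27 there were 13.0 and 9.81 counts of Rps27l in mTOR Tg, against 9.05 and 9.54 in WT. Both mTOR Tg libraries were higher, mTOR Tg replicate 2 by little (exact permutation p = 0.33, adjusted 0.667). Only the row of Rps27 itself was counted, without the identical copy described further on. That row held 88.7% and 86.1% of the shared reads in mTOR Tg, and 87.1% and 86.9% in WT. The ratio with the copy added is not given. Rpl7, a large-subunit protein, was at 629.9 and 462 in mTOR Tg and 560.0 and 485 in WT, and per 100 of its counts Rpl7l1 had 10.5 and 11.9 in mTOR Tg, against 12.4 and 13.4 in WT, again without overlap (p = 0.33 by the same exact test, adjusted 0.667). After the correction the groups still did not overlap for these pairs. The corrected log2 ratio of Rps27l to Rps27 stood at 0.77 and 0.09 in mTOR Tg, against -0.02 and 0.02 in WT, relative to the WT mean. That of Rpl7l1 to Rpl7 stood at -0.45 and -0.13 in mTOR Tg, against -0.06 and 0.06 in WT.

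Rpl36a, encoded on the X chromosome, was at 224 and 154 in mTOR Tg and 187 and 162 in WT, and its autosomal copy Rpl36al at 237 and 167 in mTOR Tg and 189.7 and 174 in WT. Their ratio was close to even, with 106 and 109 counts of Rpl36al per 100 of Rpl36a in mTOR Tg and 102 and 108 in WT, and the groups overlapped (exact permutation p = 0.667, adjusted 0.800), as they did after the correction. Rpl39, the X-linked partner of Rpl39l, was at 329 and 224 in mTOR Tg and 277 and 233 in WT, a log2 fold change of 0.12 ± 0.26 (SE, adjusted p = 0.904 by edgeR).

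**Figure D3:**
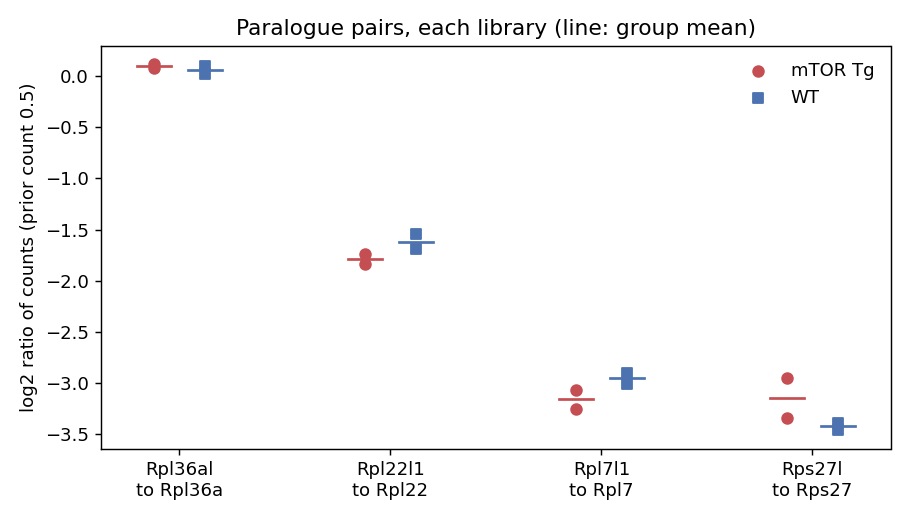
Log2 ratio of counts of 4 paralogues to their partner genes (prior count 0.5) in each library, with mTOR Tg libraries as circles, WT libraries as squares and lines at the group means. The groups do not overlap for Rpl22l1, Rpl7l1 and Rps27l, and they do for Rpl36al; the ratios are not corrected for length and GC content, after which those of Rpl22l1 overlap.

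Some members share their reads with a copy elsewhere in the genome, and their own rows hold only part of the transcript's reads. A search of annotated transcripts for copies identical over at least 99% of aligned bases and 80% of the copy found 11 in the table. Of these, 5 had from 6883 counts upwards summed over libraries and the other 6 at most 20. All 5 matched their parent at 100% of aligned bases. Reads over such stretches cannot be told apart by sequence, so values for Fau, Rpl10, Rpl27, Rps12 and Rps27 are uncertain, and so is any difference between the parent row and the copy row.

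The division differed more between genes than between libraries. Fau, a fusion of a ubiquitin-like protein with ribosomal protein S30, held 23.8% and 22.1% of the reads it shares with Gm9843 in mTOR Tg and 21.6% and 18.5% in WT. Rpl10, which joins the large subunit late in assembly, held 11.9% and 15.96% in mTOR Tg and 13.1% and 15.1% in WT, with the rest under Rpl10-ps3. Rpl27, of the large subunit, held 4.95% and 5.50% in mTOR Tg and 4.41% and 5.84% in WT, beside Rpl27-ps3. The parent rows of these 3 genes give the smaller part of their transcripts. Rps12, of the small subunit, held 4.98% and 3.70% in mTOR Tg and 3.72% and 3.58% in WT, beside Rps12-ps3. Rps27 kept 88.7% and 86.1% in mTOR Tg and 87.1% and 86.9% in WT, beside Rps27rt.

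On its own row Rps12 was at 21.00 and 10.8 in mTOR Tg and 12.4 and 10.3 in WT normalised CPM, a log2 fold change of 0.49 ± 0.36 (SE, adjusted p = 0.860 by edgeR), and with its copy added the log2 fold change was 0.20. Fau was at 148 and 80.2 in mTOR Tg and 90.7 and 66.00 in WT, a log2 fold change of 0.54 ± 0.35 (SE, adjusted p = 0.860 by edgeR), which was 0.34 with the copy. Parent and copy summed to 621 and 364 normalised CPM in mTOR Tg and 421 and 356 in WT, so that mTOR Tg replicate 2 lay between the WT values and nearer the lower one. Rpl10 was at 125 and 117 in mTOR Tg and 116 and 119 in WT, a log2 fold change of 0.05 that became 0.10, and Rpl27 at 25.7 and 19.1 in mTOR Tg and 18.2 and 21.7 in WT, where 0.17 became 0.14. For Rps27 the log2 fold change was 0.03 alone and 0.02 with the copy. In none of the 5 parent rows were the mTOR Tg and WT values apart without overlap. With copies added 0 members were called, and members and copies together took 4.15% and 3.004% of counts in mTOR Tg and 3.46% and 3.13% in WT.

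**Figure D4:**
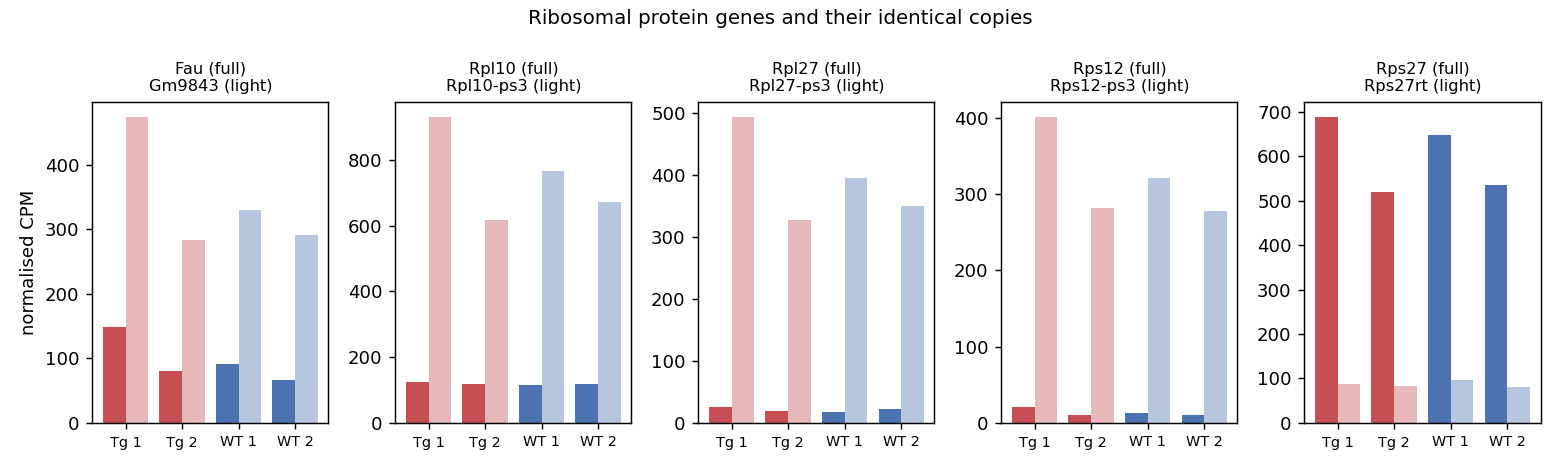
Normalised CPM (linear axes from 0, 1 scale per panel) of 5 ribosomal protein genes (full shade) and of the copy with which each shares identical sequence (light shade), in the mTOR Tg (Tg) and WT libraries. In 4 panels the copy row is the taller bar in every library, and in the Rps27 panel the parent row is.

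Scaled to the annotated transcript length and with copies added, the 78 core genes stood at a median of 598 normalised CPM per kb as means over the 4 libraries, with an interquartile range of 396 to 738, against a median of 7.58 over all tested genes with a length. The highest levels per length were those of Rps27 (1986), Rpl41 (1751), Rps14 (1308), Rps28 (1147) and Rplp1 (1143). Rpl10 was at 1084 with its copy and at 149.6 on its own row. Rps20, with a coding part of 357 bases and a mean of 248 normalised CPM before this scaling, was the lowest core gene at 66.9. Its annotated transcript of 3706 bases is the longest of the family. The tested paralogues were at 48.7 for Rpl7l1, 104 for Rpl22l1, 125 for Rps27l and 365 for Rpl36al. On the same scale their partner genes were at 459 for Rpl7, 396 for Rpl22, 1986 for Rps27 and 376 for Rpl36a.

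Transcripts of ribosomal protein genes are short, and mTOR Tg replicate 1 held more of short and of GC-rich transcripts in general. Among transcripts of 271 to 570 bases, the members had a median log2 difference of 0.52 between mTOR Tg replicate 1 and the WT mean, and 166 other genes had 0.55. Between 570 and 851 bases the medians were 0.43 for members and 0.55 for 447 other genes, and from 851 to 3706 bases they were 0.43 and 0.16. By GC content the members' median was 0.37 at 40.6% to 50%, 0.42 up to 53.6% and 0.59 up to 60.8%, where other genes had -0.26, 0.07 and 0.29. Over the 82 members the difference correlated with GC content at r = 0.49 (Spearman 0.55) and with length at r = -0.26 (Spearman -0.21), as a description over genes of 1 library.

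After a correction for length and GC content fitted on genes outside the family, the members' median difference from the WT mean was -0.10 in mTOR Tg replicate 1 and -0.14 in mTOR Tg replicate 2. Only 24 of 82 members were then above the WT mean in mTOR Tg replicate 1, against 50% of all genes and against 81 members (50.8% of genes) before the correction. In mTOR Tg replicate 2 the correction left the direction as it was, with 78 members below the WT mean (50.1% of genes), where 79 had been below it (50.1%). The median log2 fold change was then -0.11, below 0 in 69 members (49.5% of genes), and 0 members were called. Over the members, the corrected difference in mTOR Tg replicate 1 still varied with both properties, with the signs turned round: it correlated with GC content at r = -0.42 (Spearman -0.29) and with length at r = 0.47 (Spearman 0.34). For Rps20, the gene with the longest annotated transcript, that difference was 0.51 before the correction and 1.04 after it. The values of -0.10 and 24 of 82 hold with that remaining dependence on length and GC content. The difference between the WT libraries had a median of -0.09 after the correction. The direction of the members' small mean difference between genotypes changed with this correction.

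**Figure D5:**
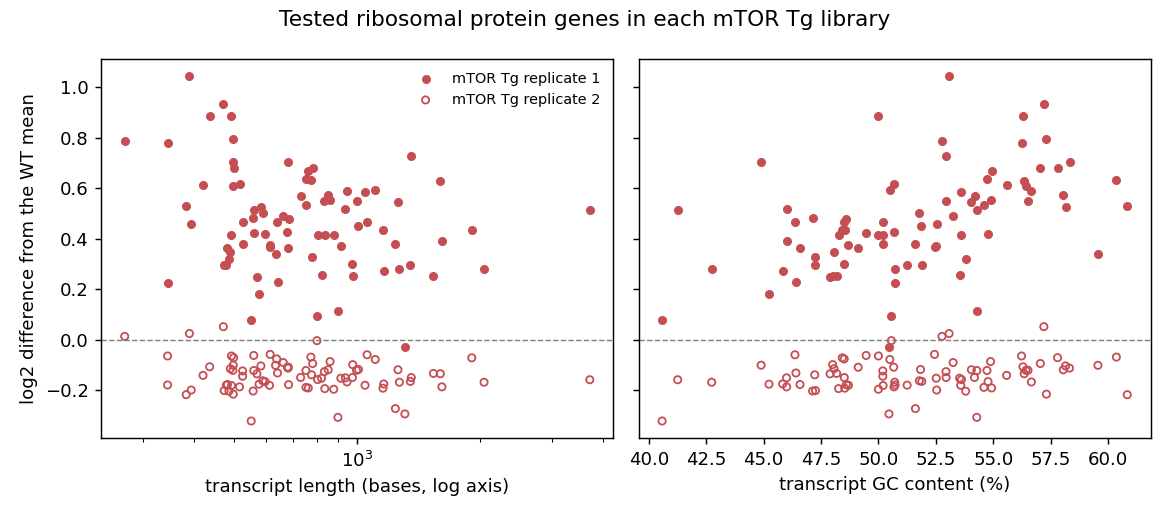
Log2 difference of each tested ribosomal protein gene from the WT mean in mTOR Tg replicate 1 (filled) and replicate 2 (open), against transcript length (log axis) and transcript GC content. In replicate 1 the points are higher at high GC content (r = 0.49); in replicate 2 their median is -0.14, they range from -0.32 to 0.05, and r with GC content is 0.23.

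Club cell transcripts were also highest in mTOR Tg replicate 1 and lowest in mTOR Tg replicate 2. The 8 club cell markers summed to 176450.3 and 63949 CPM in mTOR Tg and 92790.0 and 100129 CPM in WT, and the 7 ciliated cell markers to 2491 and 1097 CPM in mTOR Tg and 1044 and 1225 CPM in WT. The 10 type II markers summed to 102870.3 and 128612 CPM in mTOR Tg and 124176 and 106312 CPM in WT. Summed type I markers were at 1866 and 1574 CPM in mTOR Tg and 1478 and 1388 CPM in WT, and red cell markers at 3235 and 1041 CPM in mTOR Tg and 2548 and 3683 CPM in WT. The 5 endothelial markers summed to 67.0 and 56.8 CPM in mTOR Tg and 108 and 117 CPM in WT, both mTOR Tg libraries below both WT libraries, and 6 fibroblast markers to 32.6 and 62.9 CPM in mTOR Tg and 47.1 and 32.6 CPM in WT. The part of these cell types in the ribosomal protein values was not tested. Without Scgb1a1 in the library totals the members' median log2 fold change was still 0.19.

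Other mRNAs with TOP motifs had smaller medians on both sides of WT. Of 26 listed genes, mostly for translation factors and related proteins, 24 were among the deposited gene symbols, and all 24 were tested. Of these 0 were called, with log2 fold changes above 0 in 15 and a median of 0.06. Against the WT mean they stood at a median of 0.17 in mTOR Tg replicate 1 and of -0.07 in mTOR Tg replicate 2. Rack1, which encodes a ribosome component outside the symbol rule, was at 596 and 386 in mTOR Tg and 451 and 401 in WT, with mTOR Tg replicate 1 the highest library and mTOR Tg replicate 2 the lowest. Eef1a1, the elongation factor that brings aminoacyl-tRNA to the ribosome, was at 4523 and 4112 in mTOR Tg and 4578 and 4054 in WT, and Eef2, the factor that moves the ribosome along, at 2804 and 2538 in mTOR Tg and 2715 and 2354 in WT. Tpt1, which encodes the translationally controlled tumour protein, was at 1473 and 1132 in mTOR Tg and 1264 and 1129.9 in WT. Pabpc1, the poly(A)-binding protein, was at 212 and 246 in mTOR Tg and 277 and 249 in WT, lowest in mTOR Tg replicate 1, and its log2 fold change was -0.20 ± 0.20 (SE, adjusted p = 0.860 by edgeR). In 0 of the 24 were both mTOR Tg values above both WT values, and in 4 (Pabpc1, Eif3e, Hnrnpa1 and Eif2s3x) both were below. The shares over all genes were 17.6% and 17.0%.

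Regulators and assembly factors of the ribosome were not called either. Of 15 regulators, 0 were called, 7 were above 0 and the median log2 fold change was -0.02. The 4E-BP1 gene Eif4ebp1, a translation repressor inactivated by mTORC1, was at 20.9 and 17.1 in mTOR Tg and 12.02 and 12.3 in WT, and Myc, which drives ribosomal genes, at 5.94 and 5.55 in mTOR Tg and 3.40 and 3.18 in WT. In each of the pair both mTOR Tg values exceeded both WT values, with log2 fold changes of 0.65 ± 0.22 (SE, adjusted p = 0.860 by edgeR) and 0.80 ± 0.26 (SE, adjusted p = 0.860 by edgeR). Among the 15, 3 had both mTOR Tg values above both WT values (Eif4ebp1, Myc and Maf1) and 3 had both below (Rps6kb1, Larp4 and Tsc1), where the shares over all genes were 17.6% and 17.0%. The S6 kinase gene Rps6kb1 was at 19.6 and 31.3 in mTOR Tg and 32.01 and 34.3 in WT (log2 fold change -0.38), Larp4, whose product binds poly(A) tails, at 28.7 and 69.1 in mTOR Tg and 72.4 and 75.3 in WT (-0.60), and Tsc1, of the complex that restrains mTORC1, at 16.4 and 25.3 in mTOR Tg and 26.4 and 25.9 in WT (-0.33). These genes were picked out after their values were seen. Larp1, whose product holds TOP mRNAs, was at 141 and 183 in mTOR Tg and 166 and 189 in WT. Of 30 ribosome biogenesis factors, 0 were called and 19 were above 0, with a median of 0.12 (mTOR Tg replicate 1 at 0.24 and mTOR Tg replicate 2 at -0.09 relative to WT). The nucleolar methyltransferase gene Fbl was at 51.4 and 30.5 in mTOR Tg and 30.4 and 30.02 in WT and nucleolin (Ncl) at 221 and 205 in mTOR Tg and 228 and 207 in WT, both chosen after their values were seen; 3 of the 30 had both mTOR Tg values above both WT values and 3 both below.

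Which mTOR Tg library was kept decided the calls. Without mTOR Tg replicate 2, 61 of 82 members were called higher in mTOR Tg and 0 lower, where 21.8% of all genes were higher and 23.6% lower, and the members' median log2 fold change was 0.46. Without mTOR Tg replicate 1, 0 members were called in either direction, where 1.25% of genes were higher and 0.948% lower, and the median was -0.14. In each of these fits 1 library stood for the mTOR Tg group, and its spread was assumed to equal that of WT.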

How the data were processed

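RNA was measured in 2 mTOR Tg and 2 WT libraries of alveolar type II cells. The deposited values were whole-number read counts by gene symbol, as 1 table. The submitters' processing notes name HISAT2, edgeR and the build mm10. The counting program, annotation and strandedness are not stated there or in the labels, so overlapping and antisense genes cannot be told apart. Per the labels' protocols, RNA was extracted as total RNA with a Qiagen kit.

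Counts were tested with edgeR 4.0.16 in R 4.3.3: filterByExpr by group (minimum count 10), TMM factors from 0.928 to 1.04, glmQLFit without the legacy option, genotype as the only term, and Benjamini-Hochberg adjustment over 13306 genes with a threshold of 0.05. Standard errors are the fold change divided by the square root of F. Normalised CPM divide counts by the TMM-scaled library size; log2 values of CPM had a prior count of 2. Single values were compared with exact permutation tests (SciPy 1.17.1). Lengths, GC content and gene positions came from GENCODE M21 (GRCm38), 1 transcript per gene; the correction for length and GC content used lowess (span 0.3) on 13137 genes with a length, fitted without the members. Copies were found with blastn 2.17.0. Promoters are RefSeq's, on GRCm38.p6. The code was tested on simulated counts.

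The members and lists were chosen with earlier results of these data known. Genes named were members with known roles or paralogues, by p the 5 smallest above 0 and all 3 below 0, the 3 highest and 3 lowest levels, and the 3 highest and 3 lowest differences of mTOR Tg replicate 2 from WT. The result of 1 other gene is not reported here. The alternatives were other scalings, filters on low counts and tests (DESeq2 1.42.0 and limma-voom, limma 3.58.1), the length and GC correction, a replicate block, leaving out Scgb1a1 or each library, and adding identical copies. The copies, and the correction as applied to paralogue ratios, were chosen after seeing the data.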

Additional observations from a re-analysis of the deposited data

How the results depend on the processing

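The count of 0 called members did not change with DESeq2's size factors, library size alone, no filter or a stricter one, DESeq2, limma-voom, the length and GC correction, the replicate block, leaving out Scgb1a1 or adding identical copies; with a library left out it ranged from 0 to 61. The members' median log2 fold change of 0.19 lay between 0.12 and 0.19 under those settings except for the length and GC correction (-0.11), and was -0.0073 scaled to the members' sum. It was 0.16 with the replicate block and -0.11 with both the block and that correction. With a library left out it ranged from -0.14 to 0.46. The difference in the members' share of counts, 0.273 percentage points, ranged from -0.273 to 0.819, that in the large to small ratio, -0.010, from -0.023 to 0.0028, and the log2 ratio difference of Rpl36al to Rpl36a, 0.035, from -0.0048 to 0.076; with the length and GC correction the last was -0.035. The differences of the other log2 ratios ranged from -0.24 to -0.10 for Rpl22l1, 0.078 to 0.48 for Rps27l and -0.30 to -0.12 for Rpl7l1, and with that correction they were -0.018, 0.43 and -0.29. The cause of these changes was not tested.

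Of the 30 named members tested, the log2 fold change changed sign for 4 with library size alone (Rpl22 -0.0071, Rps27 -0.040, Rpl10 -0.019, Rpl7 -0.0088), for 14 scaled to the members' sum (Rps6 -0.057, Rpl5 -0.11, Rps19 -0.046, Rpl3 -0.099, Rpl22 -0.12, Rps27 -0.14, Rpl39 -0.070, Rpl36a -0.074, Rpl36al -0.038, Rpl10 -0.10, Rpl7 -0.12, Rps4x -0.089, Rps14 -0.042, Rpl27 -0.026) and for 20 with the length and GC correction (Rplp1 -0.11, Rplp2 -0.16, Rpsa -0.0060, Rps6 -0.12, Rpl11 -0.084, Rpl13a -0.077, Rps19 -0.28, Rpl10a -0.12, Rpl3 -0.15, Rpl22 -0.18, Rps27 -0.29, Rpl39 -0.14, Rpl36a -0.11, Rpl36al -0.15, Rpl10 -0.19, Rpl7 -0.053, Rps4x -0.12, Rpl41 -0.0092, Rps14 -0.23, Rpl27 -0.16). With that correction and the replicate block together 20 changed sign (Rplp1 -0.12, Rplp2 -0.16, Rpsa -0.012, Rps6 -0.12, Rpl11 -0.084, Rpl13a -0.079, Rps19 -0.29, Rpl10a -0.12, Rpl3 -0.15, Rpl22 -0.18, Rps27 -0.29, Rpl39 -0.14, Rpl36a -0.11, Rpl36al -0.15, Rpl10 -0.21, Rpl7 -0.055, Rps4x -0.11, Rpl41 -0.011, Rps14 -0.23, Rpl27 -0.15). With a library left out the ranges that crossed 0 were Rplp0 -0.15 to 0.72, Rplp1 -0.22 to 0.79, Rplp2 -0.14 to 0.61, Rpsa -0.14 to 0.63, Rps6 -0.20 to 0.41, Rpl5 -0.17 to 0.28, Rpl11 -0.13 to 0.54, Rpl13a -0.18 to 0.58, Rps19 -0.10 to 0.34, Rpl10a -0.15 to 0.57, Rpl3 -0.17 to 0.30, Rpl22 -0.20 to 0.29, Rps27 -0.19 to 0.22, Rps27l -0.10 to 0.70, Rpl39 -0.19 to 0.37, Rpl36a -0.18 to 0.36, Rpl36al -0.12 to 0.38, Rpl10 -0.0031 to 0.093, Rpl7 -0.18 to 0.27, Rps4x -0.15 to 0.30, Rps29 -0.00053 to 1.02, Rps12 -0.069 to 0.89, Rpl41 -0.11 to 0.88, Rps14 -0.17 to 0.42, Rpl27 -0.064 to 0.36, Rpl22l1 -0.33 to 0.072, Rpl21 -0.44 to 0.27. None of these was called except without mTOR Tg replicate 2, where 19 of the 30 were.

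Same-numbered deviations correlated at 0.071 over 13306 genes and at 0.28 over the members, from 2 pairs. Such a correlation over genes leaves out a shift shared by all members. The members' share of counts was higher in replicate 1 than in replicate 2 in both genotypes (3.93% and 2.84% in mTOR Tg, 3.27% and 2.96% in WT). These values cannot tell whether equal replicate numbers mark pairs of libraries. The replicate block called 0 members and 37 of all genes, against 0 without it. Fits with a library left out hold 1 library in a group and no replication of it. With 2 libraries a group, a p that misses the threshold does not show that levels were alike. DESeq2 called 12 genes, 0 of them members.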
